A study of Mus musculus with 6 samples.

Results

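The genes described here are 8 members of the core switch that commits a cell to division: the D cyclin genes Ccnd1, Ccnd2 and Ccnd3, the genes of their partner kinases, Cdk4 and Cdk6, and the pocket protein genes Rb1, Rbl1 and Rbl2. They were taken by symbol from the 19938 genes that have a probe set annotated to that gene alone, and each of the 8 had exactly 1 such probe set. Total RNA was profiled on 6 arrays, 3 of GFP+ cortical neural progenitors and 3 of RFP+ neuronal progeny, all from mouse brain of strain C57BL/6J and separated by fluorescence-activated cell sorting with a dual reporter. GFP+ cells are labelled as cortical, whereas RFP+ cells are labelled only as brain, and region and cell type cannot be told apart where these differ. The sources used here give neither the reporters' promoters nor the animals' age. They do not say whether replicates came from separate animals, and the p-values therefore measure the spread among these samples, which may be technical. Where a value differs between groups, fewer cells of a type and less RNA per cell cannot be told apart.

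D cyclins are the short-lived subunits that growth signals induce in G1, the phase before DNA replication. With Cdk4 or Cdk6 they form kinases that phosphorylate the pocket proteins pRb, p107 (the product of Rbl1) and p130 (the product of Rbl2), which in their unphosphorylated state hold E2F transcription factors in check. Once released, E2F factors switch on the genes of DNA replication. In the embryonic cortex the length of G1 is tied to whether a progenitor divides again or produces neurons, and neurons are cells that have left the cycle.

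In GFP+ progenitors all 3 D cyclin genes, Cdk6 and Rbl1 were higher than in RFP+ neurons, and Cdk4, Rb1 and Rbl2 did not pass the test. Counted over the 8 genes, 5 were higher in GFP+ progenitors and 0 in RFP+ neurons by limma at an adjusted p under 0.05. Of all 19938 genes, 30% passed in either direction: 13.8% of all genes were higher in GFP+ progenitors and 16.2% in RFP+ neurons. The 3 values of each group did not overlap for the same 5 genes, against 43.9% of all genes. The median log2 difference of the 8 genes was 1.09, against -0.08 for all genes. Intensities are the authors' linear probe set values, log2 differences (GFP+ minus RFP+, with their standard error, SE) and folds were computed after adding 16 to each intensity, and adjusted p-values are Benjamini-Hochberg values over all 19938 genes. Probe sets differ in their response, so intensities are compared between arrays and not between genes.

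**Figure D1:**
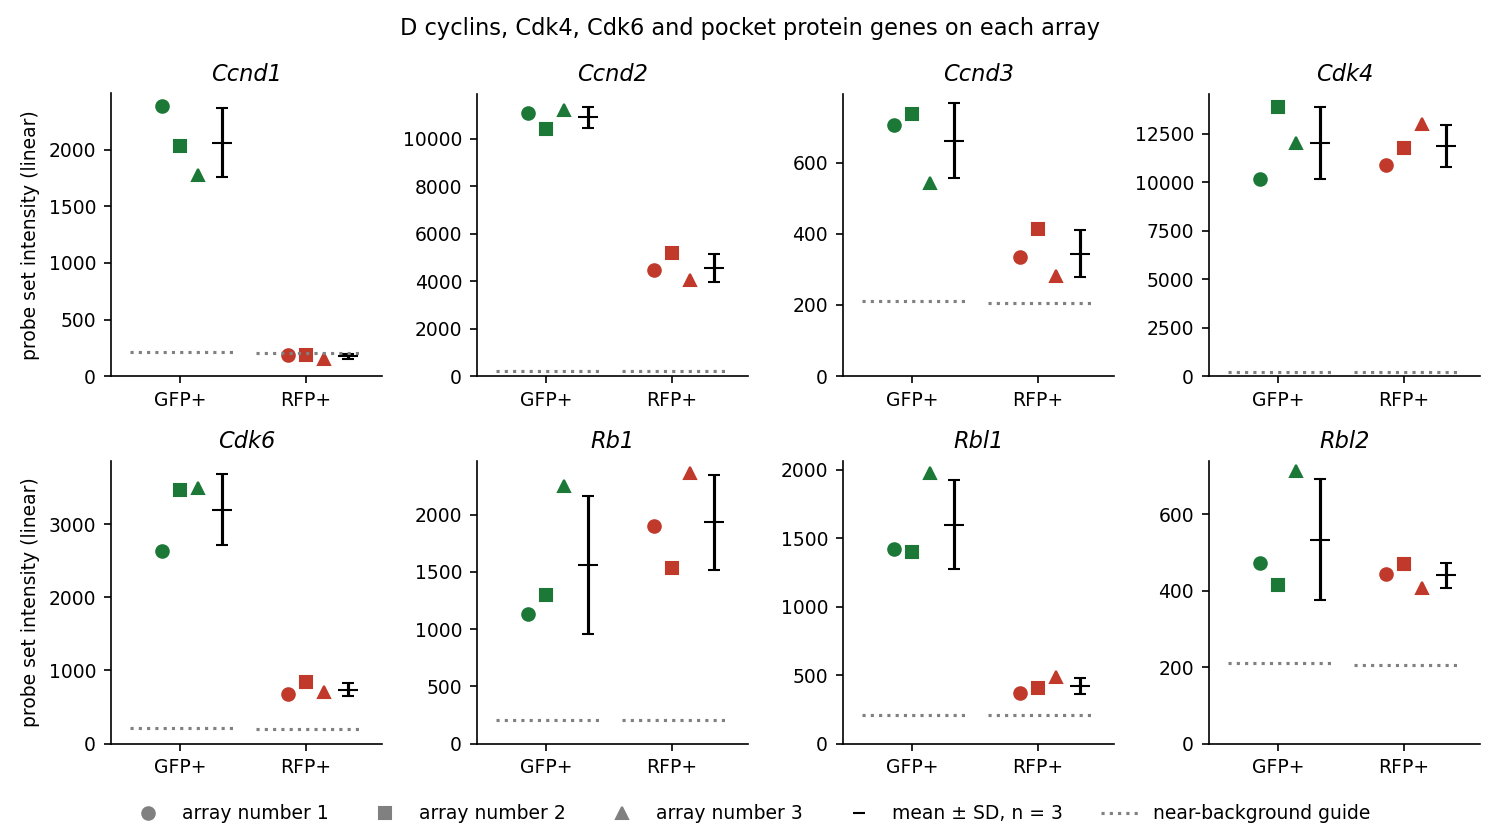
Linear probe set intensity (y axis, from 0, its own scale for each gene) of the 8 genes on the 3 GFP+ progenitor arrays and the 3 RFP+ neuron arrays, with symbols for the array number in the sample titles, bars for mean ± SD (n = 3) and a dotted line for the near-background guide (211 in GFP+, 206 in RFP+). The groups lie apart for Ccnd1, Ccnd2, Ccnd3, Cdk6 and Rbl1 and overlap for Cdk4, Rb1 and Rbl2.

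The sort labels were checked on marker genes. Mki67, a marker of dividing cells, averaged 2462 ± 302 in GFP+ progenitors and 438 ± 22.7 in RFP+ neurons (SD, n = 3 each). Pax6, a progenitor transcription factor, averaged 7499.8 ± 75.7 in GFP+ progenitors and 1488 ± 211 in RFP+ neurons, and Tbr1, of deep-layer neurons, averaged 1233 ± 306 in GFP+ progenitors and 5434 ± 275 in RFP+ neurons. Array medians lay between 210.31 and 221.1. The near-background guide was the 95th percentile of the group means of 1027 olfactory receptor genes, 211 in GFP+ progenitors and 206 in RFP+ neurons. Markers of other cells moved with the GFP+ group: 9 of 9 endothelial, 7 of 8 pericyte and mural, 5 of 5 oligodendrocyte progenitor and 3 of 6 meningeal fibroblast markers were higher in GFP+ progenitors, against 13.8% of all genes. Of the inhibitory lineage markers 2 of 6 and of the erythroid markers 1 of 5 were higher in GFP+ progenitors, the erythroid share being near that of all genes. Of 8 microglia markers 0 passed in either direction, and 7 of them averaged below the near-background guide in GFP+ progenitors and 4 in RFP+ neurons. All 7 measured markers of dividing cells were higher in GFP+ progenitors, with summed intensities of 12563 to 14091 on the GFP+ arrays and 2292 to 2667 on the RFP+ arrays. All 8 neuron markers were higher in RFP+ neurons, against 16.2% of all genes, but they also gave signal in the GFP+ samples. Their sums were 17155 to 18449 on the GFP+ arrays and 41655 to 43994 on the RFP+ arrays. The part of neurons in the GFP+ values was not tested.

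Ccnd1, which encodes cyclin D1, had the largest log2 difference among the 8 genes. Its intensity was 2384, 2028 and 1773 on the GFP+ arrays, against 190.6, 185.9 and 150.7 on the RFP+ arrays. Every GFP+ value was far above every RFP+ value, and the RFP+ mean of 176 ± 21.8 lay below the near-background guide, whereas the GFP+ mean of 2062 ± 306 (SD, n = 3 each) did not. The fitted difference was 10.8-fold (log2 difference 3.43 ± 0.21, limma adjusted p = 8.08e-10). With each RFP+ array set to the near-background guide, Ccnd1 was at least 9.30-fold higher in GFP+ progenitors (log2 difference 3.22). The size of the fitted fold depends on the offset: the log2 difference was 3.54 with an offset of 1 and 3.14 with an offset of 64. The 9 endothelial markers summed to 1968, 4656 and 6553 on GFP+ replicates 1, 2 and 3, against 650.2 to 940.3 on the RFP+ arrays. The 8 pericyte and mural markers summed to 5350 to 7137 on the GFP+ arrays and 1030.2 to 1170.1 on the RFP+ arrays, and the 5 oligodendrocyte progenitor markers to 1214 to 1909.98 and 251 to 293. The part of these 3 marker lists in the differences of Ccnd1 and the other genes was not tested.

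Ccnd2, which encodes cyclin D2, was far above the near-background guide in both groups. Its intensity was 11090.2, 10398 and 11224 on the GFP+ arrays, against 4460.1, 5185 and 4034 on the RFP+ arrays. The groups were well apart, with a mean of 4559.5 ± 582 in RFP+ neurons, against 10904 ± 443 in GFP+ progenitors (SD, n = 3 each). Progenitor markers also gave signal in the RFP+ samples. The 5 intermediate progenitor markers summed to 6048 to 7993 on the RFP+ arrays and 23866 to 24727 on the GFP+ arrays. The part of such cells in the RFP+ values was not tested. The fold for Ccnd2 was 2.398 (log2 difference 1.26 ± 0.20, limma adjusted p = 5.55e-05).

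Ccnd3, which encodes cyclin D3, is the D cyclin best known from blood cell lineages. It had 706, 736 and 541 on the GFP+ arrays, against 335, 414 and 282 on the RFP+ arrays. All GFP+ values exceeded all RFP+ values, with the lowest value of each group on the array numbered 3. The difference was 1.89-fold (log2 difference 0.92 ± 0.21, limma adjusted p = 0.00264). Of 5 erythroid markers 4 averaged below the near-background guide in each group, and their sum was 709.5 to 976 on the GFP+ arrays and 618 to 740 on the RFP+ arrays.

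The changes of the D cyclin genes were set against each other within arrays. In each array, the log2 value of Ccnd1 minus that of Ccnd2 was -2.21, -2.35 and -2.65 on the GFP+ arrays and -4.44, -4.69 and -4.60 on the RFP+ arrays, a difference of changes of 2.17 log2 units, with Ccnd1 the larger. Ccnd1 exceeded Ccnd3 by 2.52 log2 units in the same way, and Ccnd2 exceeded Ccnd3 by 0.35. For all 7 pairs of relatives compared here (3 among D cyclins, 1 between the kinases, 3 among pocket proteins) the within-array differences of the groups did not overlap, and each had an exact two-sided permutation p of 0.1 (0.1 also after adjustment over the 7 pairs), the smallest that 3 arrays against 3 allow. No pair could therefore pass 0.05. Among single genes, 43.9% did not overlap between the groups. The same share over pairs of genes was not computed, so the count of 7 does not set these pairs apart. For Ccnd2 against Ccnd3 the gap was small: the difference of changes was 0.19 to 0.46 when single arrays were left out.

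**Figure D2:**
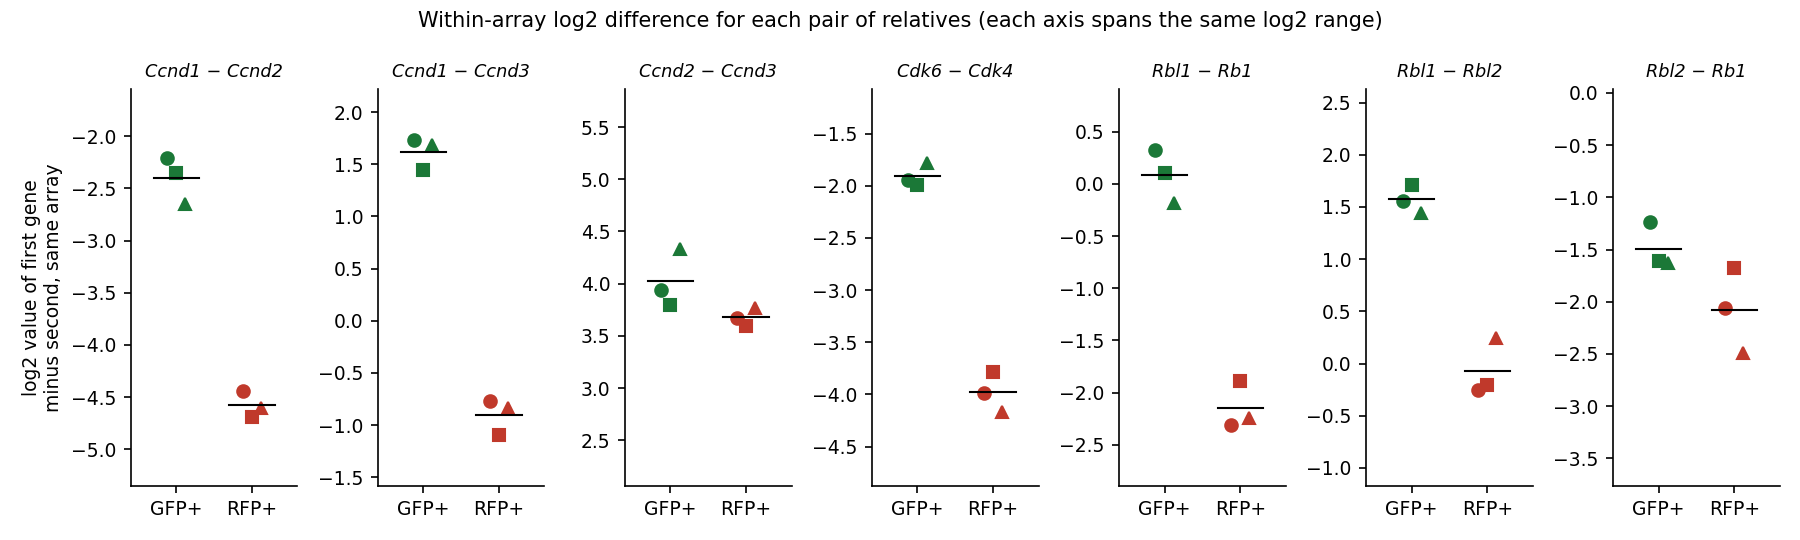
Log2(intensity + 16) of the first gene minus that of the second on the same array (y axis, log2 units, each panel spanning the same range) for 7 pairs of related genes, on GFP+ and RFP+ arrays, with circles, squares and triangles for the arrays numbered 1, 2 and 3 and a bar at the mean of 3. Gaps between groups run from 0.35 (Ccnd2 minus Ccnd3) to 2.52 (Ccnd1 minus Ccnd3), and the height of a panel's values carries no meaning because the probe sets differ.

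The kinase genes differed in their call. Cdk6 had intensities of 2632, 3472 and 3490.3 on the GFP+ arrays, against 672, 839 and 708 on the RFP+ arrays. The lowest GFP+ value was more than any RFP+ value, and the fold was 4.24 (log2 difference 2.08 ± 0.21, limma adjusted p = 1.78e-07). Cdk4 had intensities of 10162.6, 13885 and 12018 on the GFP+ arrays, against 10871, 11746 and 12998 on the RFP+ arrays. The ranges overlapped almost entirely, with the highest and the lowest value both on GFP+ arrays. Its mean was 12022 ± 1861 in GFP+ progenitors and 11871 ± 1069 in RFP+ neurons (SD, n = 3 each), a log2 difference of 0.010 ± 0.21 with a 95% interval of -0.42 to 0.44 (limma adjusted p = 0.975). With median centring of the arrays the log2 difference of Cdk4 was -0.028. Within arrays Cdk6 exceeded Cdk4 in its change by 2.07 log2 units.

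The promoters of the kinase genes are shown because these relatives differed in their call. Both are 300-base windows from RefSeq on GRCm38.p6, 250 bases before to 50 after the start of the gene, on the plus strand, at chr10:127063285-127063584 for Cdk4 and chr5:3343643-3343942 for Cdk6. Capitals mark the E-box CACGTG, a motif that reads the same on both strands and that Myc and related factors are known to bind.
Cdk4: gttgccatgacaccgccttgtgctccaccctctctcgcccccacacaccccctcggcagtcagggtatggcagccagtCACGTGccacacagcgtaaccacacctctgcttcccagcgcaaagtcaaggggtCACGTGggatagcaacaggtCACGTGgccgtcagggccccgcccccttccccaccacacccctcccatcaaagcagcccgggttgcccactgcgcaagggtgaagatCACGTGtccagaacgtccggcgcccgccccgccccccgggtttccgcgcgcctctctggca
Cdk6: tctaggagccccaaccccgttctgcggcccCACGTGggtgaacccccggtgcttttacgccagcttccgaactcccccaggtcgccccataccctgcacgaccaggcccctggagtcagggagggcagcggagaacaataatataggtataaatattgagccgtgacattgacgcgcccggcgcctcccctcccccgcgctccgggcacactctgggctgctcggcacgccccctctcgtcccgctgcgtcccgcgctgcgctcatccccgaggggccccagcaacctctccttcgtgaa
The Cdk4 window held 4 E-boxes, whose first bases lie at -172, -118, -98 and -11 relative to the start, and the Cdk6 window held 1, at -220. At least 1 E-box was present in 7.15% of all 32851 windows in the table, and 8 windows held 4 or more. These matches describe the letters only.

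Among the pocket protein genes, Rbl1 rose and the others did not pass. Rbl1 had intensities of 1422, 1399 and 1975 on the GFP+ arrays, against 371, 405 and 486 on the RFP+ arrays. The groups were far apart, and the array numbered 3 was the highest of its group on both sides. The mean was 1599 ± 326 in GFP+ progenitors and 420.4 ± 59 in RFP+ neurons (SD, n = 3 each), a 3.67-fold difference (log2 difference 1.88 ± 0.21, limma adjusted p = 9.09e-07).

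Rb1, the retinoblastoma gene, had intensities of 1129.9, 1300.01 and 2249 on the GFP+ arrays, against 1902, 1538 and 2361 on the RFP+ arrays. The groups overlapped, since GFP+ replicate 3 exceeded the RFP+ arrays numbered 1 and 2. The log2 difference was -0.35 ± 0.25 with a 95% interval of -0.87 to 0.17 (limma adjusted p = 0.303). Taken within each replicate number, a pairing that the labels do not give, the log2 differences of Rb1 were -0.74, -0.24 and -0.07. With the replicate number as a block the adjusted p was 0.151. Without GFP+ replicate 3 the log2 difference was -0.65 (limma adjusted p = 0.0437), which would make Rb1 the single gene of the 8 to be called higher in RFP+ neurons.

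Rbl2, the gene of p130, the pocket protein best known from cells at rest, had intensities of 472, 416 and 715 on the GFP+ arrays, against 445, 469.9 and 407 on the RFP+ arrays. GFP+ replicate 3 stood above the other 5 arrays, which lay close together. The log2 difference was 0.23 ± 0.22 with a 95% interval of -0.23 to 0.70 (limma adjusted p = 0.446), and 0.0098 without GFP+ replicate 3. Within arrays, Rbl1 exceeded Rb1 in its change by 2.23 log2 units and Rbl2 by 1.64, and Rbl2 exceeded Rb1 by 0.58. For Rbl2 minus Rb1 the groups nearly met, at -1.63 on GFP+ replicate 3 and -1.68 on RFP+ replicate 2.

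All 3 pocket protein genes had their highest GFP+ intensity on replicate 3. Of the 8 genes 5 did, against 33.5% of all genes, and the endothelial sum was also highest on that array. The part of that array's makeup in these values was not tested. Without it, Rbl1 kept a log2 difference of 1.72.

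**Figure D3:**
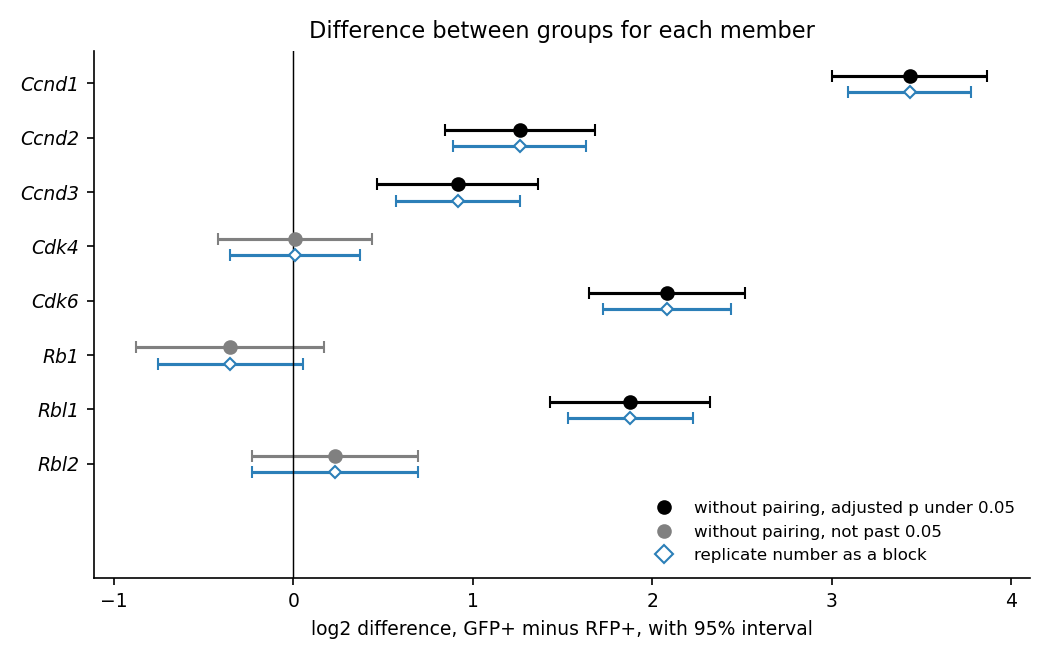
Log2 difference, GFP+ minus RFP+ (x axis), of each of the 8 genes with its 95% interval, from the fit without pairing (circles, black where the adjusted p was under 0.05 and grey where not) and with the replicate number as a block (open diamonds). The intervals of Ccnd1, Ccnd2, Ccnd3, Cdk6 and Rbl1 lie above 0 in both fits, and those of Cdk4, Rb1 and Rbl2 include 0 in both.

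The Rbl1 promoter is shown because Rbl1, alone among the pocket protein genes, passed the test, and because p107 is known as a product of an E2F-responsive gene. The window is from RefSeq on GRCm38.p6, minus strand, chr2:157204485-157204784, read in the direction of the gene. Capitals mark a match to the E2F motif, searched as TTTCGCGC or TTTGGCGC on both strands.
Rbl1: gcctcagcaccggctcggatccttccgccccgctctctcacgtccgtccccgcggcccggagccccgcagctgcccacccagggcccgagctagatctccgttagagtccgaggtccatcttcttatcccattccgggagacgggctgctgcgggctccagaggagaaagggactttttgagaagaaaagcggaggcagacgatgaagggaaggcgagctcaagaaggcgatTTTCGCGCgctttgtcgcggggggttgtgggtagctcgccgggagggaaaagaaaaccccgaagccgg
The match is TTTCGCGC, on the strand of the gene, and its first base lies at -18 relative to the start. Either motif was present in 0.813% of all 32851 windows. No match to these letters was found in the windows of Rbl2, Cdk4, Cdk6 or Ccnd3, which has 2 windows, and no E-box in those of Rbl1, Rbl2 or Ccnd3. Promoters were matched for 5 of the 8 genes; those of Ccnd1, Ccnd2 and Rb1 are not shown here.

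The genes that act beside and below these 8 were taken from 7 lists chosen by function. Of 10 E2F factors and their DP partners, 7 were higher in GFP+ progenitors and 0 in RFP+ neurons, against 13.8% and 16.2% of all genes, with a median log2 difference of 1.04. The activating factors E2f1, E2f2 and E2f3 all rose (log2 differences 1.51, 1.67 and 1.19), as did the repressors E2f7 and E2f8, which lack a pocket protein binding region (0.88 and 2.26). The RFP+ means of E2f2 and E2f8 lay below the near-background guide, and with the RFP+ arrays set to that guide the folds were at least 1.11 and 3.37. The GFP+ mean of E2f2, 231, lay little above the GFP+ guide of 211, and GFP+ replicate 3 lay below that guide. The size of the E2f2 difference is therefore uncertain. E2f8 had 769, 633 and 806 on the GFP+ arrays, against 150.1, 158 and 116 on the RFP+ arrays. E2f4 and E2f5, the usual partners of p107 and p130, gave 0.53 (adjusted p = 0.0513) and 1.34 (adjusted p = 3.84e-05). E2f4 passed the threshold under 9 of 19 alternatives. E2f6, which acts without pocket proteins, gave 0.15 (adjusted p = 0.643), and the DP genes Tfdp1 and Tfdp2 gave 0.37 (adjusted p = 0.208) and 0.65 (adjusted p = 0.0169); the Tfdp2 call ended without RFP+ replicate 1, without RFP+ replicate 2 or without both arrays numbered 1 (adjusted p up to 0.0960).

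Of 10 cyclins and kinases of the G1 to S step, 6 were higher in GFP+ progenitors and 0 in RFP+ neurons. The shares of all genes were 13.8% and 16.2%, and the median log2 difference of the list was 1.19. Cyclin E genes, whose products bind Cdk2 once E2F is released, rose: Ccne1 by 1.39 and Ccne2 by 1.71 log2 units (Ccne2 at least 2.82-fold against the near-background guide, which its RFP+ mean lay below). Cdk2 had 1248, 1484 and 1427 on the GFP+ arrays, against 261, 268 and 311 on the RFP+ arrays, a 4.74-fold difference (log2 difference 2.25 ± 0.20, limma adjusted p = 4.28e-08). The S and M phase partners Ccna2 and Cdk1 rose by 2.22 and 2.06 log2 units. Ccna1, the germline form of cyclin A, gave 0.32 (adjusted p = 0.31), with means of 122 ± 39.4 in GFP+ progenitors and 92.4 ± 13.3 in RFP+ neurons (SD, n = 3 each), both below the near-background guide. Of the kinase complex that activates cyclin-dependent kinases, Mnat1 rose by 0.99, while Cdk7 gave -0.035 (adjusted p = 0.916) and Ccnh -0.092 (adjusted p = 0.787). Cdc25a, a phosphatase gene that removes inhibitory phosphates from these kinases, gave 0.52 (adjusted p = 0.06) and passed under 8 of 19 alternatives.

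Of 6 measured inhibitor genes of these kinases, 1 was higher in GFP+ progenitors and 1 in RFP+ neurons, near the 13.8% and 16.2% of all genes, with a median log2 difference of 0.036. Cdkn2c, which encodes p18, an INK4 inhibitor of Cdk4 and Cdk6, had 561, 1222 and 725 on the GFP+ arrays, against 202, 155 and 154 on the RFP+ arrays (log2 difference 2.13 ± 0.25, limma adjusted p = 1.35e-06), with an RFP+ mean below the near-background guide and a fold of at least 3.65 against it. Cdkn1c, which encodes p57, had 1887, 3279.9 and 1928 on the GFP+ arrays, against 4908, 4975 and 4251 on the RFP+ arrays (log2 difference -1.03 ± 0.23, limma adjusted p = 0.00161). Both groups were apart for each gene, and GFP+ replicate 2 was the highest GFP+ array for both. Cdkn1b, the gene of p27, gave -0.036 (95% interval -0.47 to 0.39) and Cdkn2d, of p19, -0.39 (95% interval -0.90 to 0.12). The Cdkn2a and Cdkn2b probe sets averaged below the near-background guide in both groups, with log2 differences of 0.15 and 0.11 that did not pass.

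Of 16 measured genes that E2F is known to switch on, 15 were higher in GFP+ progenitors and 0 in RFP+ neurons, with a median log2 difference of 1.55. Of all genes, 13.8% were higher in GFP+ progenitors and 16.2% in RFP+ neurons. The E2F target genes were led by the replicative helicase genes Mcm3 (2.47) and Mcm2 (2.15) and the licensing gene Cdc6 (2.36, at least 2.57-fold against the near-background guide, which its RFP+ mean lay below). Dnmt1, the maintenance DNA methyltransferase gene, was the member that did not pass (0.38, adjusted p = 0.154) and is named after its value was seen. The MuvB complex is joined by p107 and p130 to silence cell cycle genes. Of 8 genes of this complex and its activating partners, 3 were higher in GFP+ progenitors and 0 in RFP+ neurons, beside the same 13.8% and 16.2%. The 3 were the activators Foxm1 (2.34), Mybl1 (2.17) and Mybl2 (1.41). The RFP+ means of Mybl1 and Mybl2 lay below the near-background guide (folds of at least 2.48 and 1.92 against it). None of the 5 MuvB subunit genes Lin9, Lin37, Lin52, Lin54 and Rbbp4, named after their values were seen, passed, with log2 differences of -0.08 to 0.49. The 15 E2F targets and the 3 activators called here moved in the same direction as the markers of dividing cells, whose part in these values was not tested.

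Of 9 measured corepressors of pocket proteins, 2 were higher in GFP+ progenitors and 3 in RFP+ neurons, beside 13.8% and 16.2% of all genes, counts too small to set the list apart, with a median log2 difference of -0.22. Among them, the histone deacetylase gene Hdac1 had 4804, 5202 and 4847 on the GFP+ arrays, against 2599.9, 2573 and 2830.2 on the RFP+ arrays (log2 difference 0.89 ± 0.20, limma adjusted p = 0.00153). Its relative Hdac2 had 4730.1, 5802 and 6689 on the GFP+ arrays, against 9058, 7434 and 9943 on the RFP+ arrays (log2 difference -0.62 ± 0.21, limma adjusted p = 0.0324). The Hdac2 call ended under 7 of 19 alternatives, among them quantile normalization and leaving out any 1 of GFP+ replicates 1 and 2 and RFP+ replicates 1 and 3 (adjusted p up to 0.25). Rbbp7, a histone-binding gene, rose by 0.72, and the scaffold gene Sin3b and the pRb-binding gene Arid4a fell by 0.64 and 0.61 log2 units in GFP+ progenitors. These 3 calls also ended in part of the settings with an array left out: Rbbp7 without RFP+ replicate 2 or both arrays numbered 1 (adjusted p up to 0.0702), Sin3b without RFP+ replicate 1, RFP+ replicate 2 or both arrays numbered 1 (up to 0.107), and Arid4a without any single array other than GFP+ replicate 3 and without both arrays numbered 1 (up to 0.132).

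Of 9 genes tied to the destruction of D cyclin proteins, 0 were higher in GFP+ progenitors and 3 in RFP+ neurons, beside 13.8% and 16.2% of all genes, with a median log2 difference of -0.035; so few genes do not set the list apart. Fbxo31, a ubiquitin ligase subunit gene that targets cyclin D1 after DNA damage, had 529, 496.5 and 390.3 on the GFP+ arrays, against 778, 863 and 877 on the RFP+ arrays (log2 difference -0.82 ± 0.20, limma adjusted p = 0.00427). Gsk3b, the gene of a kinase that marks cyclin D1 for export and breakdown, gave -0.72 ± 0.20 (adjusted p = 0.0103); this call ended without RFP+ replicate 1 or without both arrays numbered 1 (adjusted p up to 0.0556). Cryab, a chaperone gene, gave -0.86 ± 0.21 (adjusted p = 0.00342), with GFP+ values of 116, 139 and 102 that lay below the near-background guide and RFP+ values of 238, 262 and 190.04. Its RFP+ mean of 230 lay little above the RFP+ guide of 206, and RFP+ replicate 3 lay below it. The size of the Cryab difference is therefore uncertain. The 6 genes not called ranged from -0.50 (Ambra1, limma adjusted p = 0.0765) to 0.44 (Fbxo4, limma adjusted p = 0.115), both named after their values were seen. The arrays measured RNA, and cyclin D protein was not measured.

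**Figure D4:**
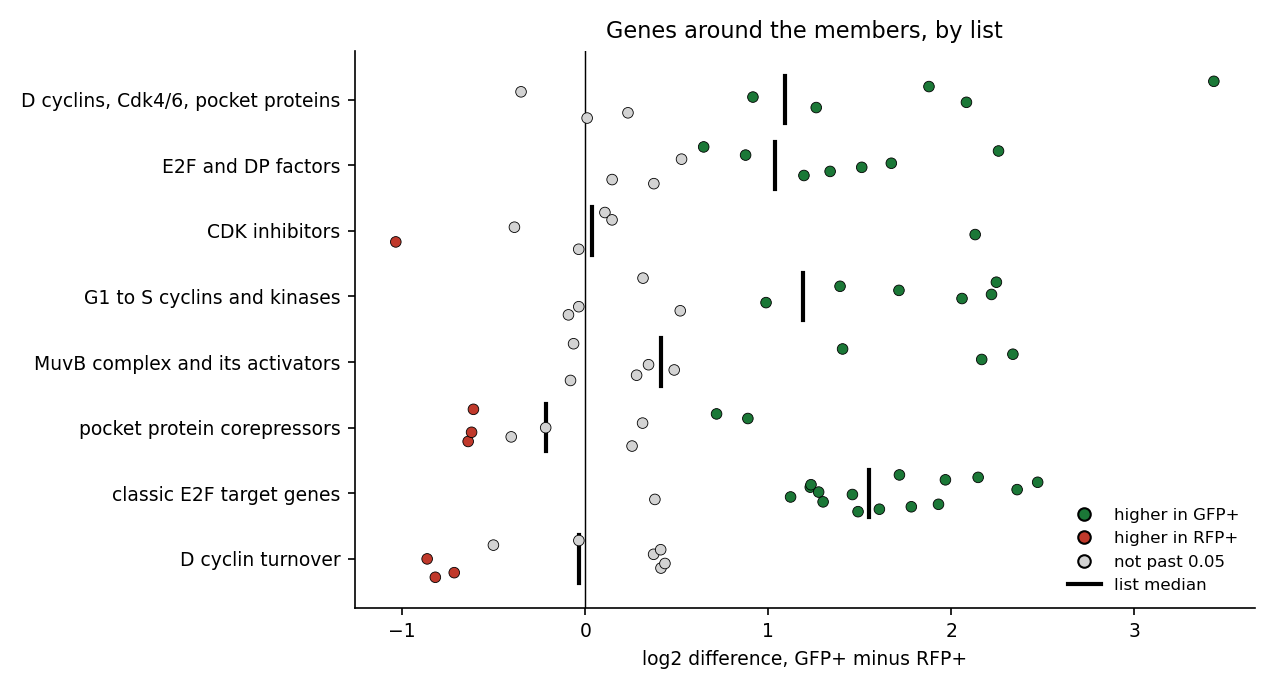
Log2 difference, GFP+ minus RFP+ (x axis), of every measured gene in the set of 8 and in 7 lists of related genes (rows), green where higher in GFP+ progenitors, red where higher in RFP+ neurons and grey where the adjusted p was not under 0.05, with a black bar at each list's median. List medians run from -0.22 (corepressors) to 1.55 (E2F target genes), and no E2F, G1 to S, MuvB or E2F target gene is called higher in RFP+ neurons.

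For each of the 8 genes the gene with the most similar pattern over the 6 arrays was found by the root mean square difference of log2 values after each gene was centred on its own mean. Zfp36l1, an mRNA decay factor gene, was nearest to Ccnd1 (0.12 log2 units), with means of 1269.6 ± 89.97 in GFP+ progenitors and 93.6 ± 16.3 in RFP+ neurons (SD, n = 3 each). Septin1 was nearest to Ccnd2 (0.044), Parp16 to Ccnd3 (0.063), and Gpc3, a glypican gene, to Cdk6 (0.052). Ncapg2, a condensin subunit gene, was nearest to Rbl1 (0.062), Dhrs1 to Cdk4 (0.033), 1600012H06Rik to Rb1 (0.0495) and Hepacam2 to Rbl2 (0.058). With 19938 genes and 6 arrays in 2 groups, close matches are common and carry no statement on function.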

How the data were processed

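RNA of 6 sorted cell samples was hybridised to Affymetrix whole-transcript arrays, 1 array per sample, per the labels. The values are the probe set intensity on a linear scale as deposited by the authors, who name the Affymetrix Expression Console, per the submitters' processing notes; the sources used here do not give its version or settings. The table held 35557 probe sets: 21789 with 1 gene symbol (Entrez IDs matched for 21698, with 0 symbols updated), 1621 with several and 12147 without a name here. Each gene kept its brightest probe set by mean over all 6 arrays, leaving 19938 genes and no filter on dim ones. The number of arrays limits the precision.

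Groups come from the sample titles. Log2(intensity + 16) was fitted by limma (version 3.58.1, R 4.3.3; lmFit, then eBayes) as a two-sided comparison of GFP+ with RFP+ and adjusted by Benjamini-Hochberg over all genes, threshold 0.05; the fit was also tested on simulated data. Promoters and figures used Python 3.11.15, pandas 2.3.3 and matplotlib 3.10.9. Changes of related genes were compared by exact permutation. Genes named are the 8 members, all measured genes of the E2F and DP, inhibitor and G1 to S lists, the 3 largest passing differences each way in other lists, the nearest gene to each member, and Mki67, Pax6 and Tbr1. The members and lists were chosen with earlier results of these data known. Listed genes that were not measured are not analysed here.

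Arrays with the same replicate number in their titles tended to deviate alike. Deviations from the group means, across genes, correlated at 0.204, 0.288 and 0.361 for arrays of the same number. For arrays of different numbers the correlations were -0.266 to 0.00416, though deviations within a group sum to 0. These values do not show whether a number stands for shared animals or shared processing. The labels do not say what a number stands for. The fit without pairing was kept and the paired fit run as an alternative, beside 18 other settings.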

Additional observations from a re-analysis of the deposited data

How the results depend on the processing

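The calls of Ccnd1, Ccnd2, Ccnd3, Cdk6 and Rbl1, and their direction, held under all 19 alternatives, with log2 differences of 3.14 to 3.54, 1.18 to 1.36, 0.79 to 1.05, 2.01 to 2.22 and 1.72 to 1.98 and adjusted p-values up to 0.0458 (Ccnd3 without both arrays numbered 1). Rbl2 and Cdk4 passed under none. Part of these settings leave the log2 differences of the 8 genes as they are, so direction and size could not change there. These are the replicate blocks, the filters on dim genes, the other uses of probe sets, and the intensity trend with robust moderation. Under them only the adjusted p-values could move. With the replicate number as a block, 3324 genes were higher in GFP+ progenitors and 4047 in RFP+ neurons, against 2742 and 3236 without it, and no call among the 8 genes changed. With single arrays left out, the log2 difference of Cdk4 ranged from -0.099 to 0.13 and that of Rb1 from -0.65 to -0.15; the count of the 8 genes higher in RFP+ neurons was 0 to 1, the 1 being Rb1 without GFP+ replicate 3. Median centring gave Cdk4 a log2 difference of -0.028. Of the corepressors, 1 to 2 were called higher in GFP+ progenitors and 0 to 3 in RFP+ neurons with single arrays left out, and 1 and 0 without both arrays numbered 1, which also left 1848 of all genes higher in RFP+ neurons; these settings hold fewer arrays. Of the D cyclin turnover genes, 3 were called higher in GFP+ progenitors with the number as a random block and 1 with an intensity trend and robust moderation, against 0; the cause was not tested. Signs turned for genes near 0: Cdkn1b gave 0.0041 with quantile normalization, 0.0695 with the mean of its probe sets and 0.0212 with array weights, and -0.16 to 0.051 with single arrays left out. On the same leave-out settings E2f6 ranged from -0.026 to 0.36, Cdkn2a from -0.018 to 0.35, Cdkn2b from -0.0403 to 0.33, Cdk7 from -0.19 to 0.081 and Ccnh from -0.24 to 0.14. Without both arrays numbered 1, Cdkn2b gave -0.068 and Ccnh 0.056. No difference of changes between related genes turned its sign. Probe sets near background, as Ccnd1 in RFP+ neurons, limit the size of folds. Each of the 8 genes has 1 probe set, so the choice among probe sets could not move its value.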
